A study of Homo sapiens with 9 samples.

Results

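Heme is built in a chain of enzymatic steps that begins and ends in the mitochondrion. The genes described here are 9 members of that pathway: ALAS1 and ALAS2, which encode the housekeeping and the erythroid form of the first enzyme, ALAD, UROS, UROD, CPOX, PPOX and FECH, which encode later enzymes, and SLC25A37, which encodes mitoferrin-1, the importer that brings iron into the mitochondrion. They were chosen by name, and each was read from its brightest probe set with exactly 1 gene symbol. All 9 were measured, of 18239 genes in all.

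Expression was measured on Affymetrix arrays in the K562 cell line, which grew out of a human myeloid leukaemia and makes fetal and embryonic globins. Cells had received retroviral supernatant in 4 cycles at 12 h intervals and a further 36 h of culture, and were then selected with magnetic beads for the surface marker NGFR. Marker-positive purity was above 90% when checked 48 h later. The 3 groups were cells given the Del52 form of calreticulin (CALR), the Ins5 form, and the wild-type form, with 3 arrays each. Calreticulin is a chaperone of the endoplasmic reticulum, and Del52 and Ins5 are frameshifts that give it a new C-terminal tail. Every group carried a CALR construct and the marker, and cells without a construct were not analysed here. Nothing in the labels says that replicates came from separate cultures, so p-values measure only the spread between these samples.

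In this pathway, ALAS joins glycine and succinyl-CoA to aminolevulinic acid, the committed step. ALAD, UROS and UROD work in the cytosol, CPOX and PPOX act at the mitochondrial membranes, and FECH inserts iron into protoporphyrin. In erythroid cells ALAS2 carries most of the flux, and its mRNA holds an iron-responsive element, a hairpin through which iron-regulatory proteins block translation. ALAS1 serves other tissues and is repressed by heme. Erythroid genes of the pathway are known targets of GATA1, and CACCC-type sites are known targets of KLF1.

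The promoters are shown as a description. Any link between their letters and how members of the pathway moved across the arrays was not tested. RefSeq promoter windows on GRCh38.p14 were at hand for 7 of the 9 members. The 250 bases before the start of 4 genes follow, 5′ to 3′ on the gene's strand. Capitals mark AGATAA, which GATA factors are known to bind, and the KLF-type motif CCNCNCCC, each on either strand, so that some capitals read as the complement. Matches that overlap are merged.
ALAS2, chrX:55030978-55031227, minus strand: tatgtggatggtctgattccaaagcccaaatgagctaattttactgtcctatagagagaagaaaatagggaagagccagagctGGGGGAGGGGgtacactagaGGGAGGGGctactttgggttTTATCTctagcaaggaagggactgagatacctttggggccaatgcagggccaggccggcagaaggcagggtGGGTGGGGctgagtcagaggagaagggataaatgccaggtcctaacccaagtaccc
UROD, chr1:45012004-45012253, plus strand: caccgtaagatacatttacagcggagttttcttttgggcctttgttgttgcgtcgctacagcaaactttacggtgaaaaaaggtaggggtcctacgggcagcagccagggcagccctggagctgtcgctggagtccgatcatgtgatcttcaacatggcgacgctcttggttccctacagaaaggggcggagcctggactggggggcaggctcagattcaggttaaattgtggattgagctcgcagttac
ALAS1, chr3:52197833-52198082, plus strand: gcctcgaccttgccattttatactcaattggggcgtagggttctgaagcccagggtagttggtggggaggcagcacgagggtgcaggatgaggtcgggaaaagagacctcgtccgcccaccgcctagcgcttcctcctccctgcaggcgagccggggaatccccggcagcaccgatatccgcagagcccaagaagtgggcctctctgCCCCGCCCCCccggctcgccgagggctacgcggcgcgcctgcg
CPOX, chr3:98593612-98593861, minus strand: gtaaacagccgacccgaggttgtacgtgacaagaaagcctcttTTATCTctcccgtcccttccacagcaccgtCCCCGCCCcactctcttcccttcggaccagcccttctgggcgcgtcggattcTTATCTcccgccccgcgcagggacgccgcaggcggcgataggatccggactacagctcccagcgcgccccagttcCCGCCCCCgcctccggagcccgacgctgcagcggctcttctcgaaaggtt

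AGATAA occurred once in ALAS2, at 122 to 127 bases before the start, and at 2 places in CPOX. PPOX has 2 start sites in the table, and 1 of the 2 windows held the motif, shown here with 12 bases on each side.
PPOX, chr1:161166571-161166600, plus strand: agggtgtggcccTTATCTgcacccagcaga
Of all 35116 promoter windows of this length, 9.17% held AGATAA on either strand. TGATAA, the other GATA letters searched, was in none of the members' windows and in 6.66% of all. The KLF-type motif is common, at 53.4% of all windows, and was found in ALAS1, ALAS2, ALAD, CPOX, FECH and 1 PPOX window, but not in UROD. An NFE2-type motif was in none of the members' windows and in 0.131% of all.

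The first 50 transcribed bases were searched on the sense strand for CAGTGN, the letters of the iron-responsive element's loop. Of the members only ALAS2 held them, as shown in capitals with 12 bases on each side.
ALAS2, chrX:55030940-55030969, minus strand: ttcgttcgtcctCAGTGCagggcaacaggt
The same letters were in 6.36% of all windows. These are matches of letters and not measured binding sites.

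Values are the authors' log2 expression values (RMA) per probe set, and levels of different probe sets are not set against each other. The 23 antigenomic control probe sets, which match no human gene, spanned 1.53 to 6.52, so ALAS1, ALAD and UROS lay within that span and the other 6 members above it. Array medians lay between 3.73 and 3.76. The groups overlapped in the transduced gene and in the marker, and whether these probe sets read the constructs' transcripts was not tested: CALR had means of 7.42 for Del52, 7.40 for Ins5 and 7.57 for wild type, and NGFR 3.42 for Del52, 3.43 for Ins5 and 3.36 for wild type. The NGFR means lay within the span of the antigenomic controls and below the array medians. Of 8 measured erythroid markers 7 had means above the antigenomic controls, among them the fetal globin HBG1. The exception was EPOR. Of the markers of other cells, 0 of 7 for megakaryocytes, 0 of 6 for lymphoid cells, 1 of 8 for granulocytes and monocytes (LYZ) and 2 of 8 for fibroblasts and epithelia (EPCAM and KRT8) were above the controls.

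Most of the variance lay among arrays of the same form. Differences between groups held 13.4% of it over all genes, and the first principal component held 70.5%. On that component wild-type replicate 2 scored 0.57 and wild-type replicate 3 scored -0.57, the 2 ends of the range.

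None of the 9 members passed the threshold in any comparison of CALR forms. With limma and Benjamini-Hochberg adjustment over all 18239 genes, 0 of 9 members passed an adjusted p of 0.05 in Del52 against wild type, where 0% of all genes did. At an unadjusted p under 0.05 there were again 0 of 9, where 7.05% of all genes had one. In none of the 9 did the Del52 arrays separate from the wild-type arrays, against 6.23% of all genes that were higher without overlap and 4.36% that were lower. In bulk RNA, fewer cells of a type and less RNA per cell cannot be told apart. The members' log2 fold changes ran between -0.10 and 0.16 with a median of 0.05, and the median over all genes was 0.01. Of the 9, 7 lay above 0, where 54.6% of all genes did.

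Ins5 against wild type gave the same counts: 0 of 9 members passed (0% of all genes), 0 of 9 had an unadjusted p under 0.05 (7.41% of all genes), and 0 of 9 had groups without overlap (8.16% of all genes higher, 3.3% lower). The log2 fold changes ran between -0.16 and 0.11 with a median of -0.01, beside 0.02 for all genes, and 4 of 9 lay above 0, where 59.6% of all genes did. Both comparisons share the wild-type arrays. Between the mutants, Del52 against Ins5, 0 of 9 members passed (0% of all genes), 0 of 9 had an unadjusted p under 0.05 (5.77%), and 0 of 9 were separated (3.81% higher, 6.28% lower). The median was 0.06, beside -0.01 for all genes, and 7 of 9 lay above 0, where 45.4% of all genes did. With both mutants averaged against wild type, 0 of 9 passed (0% of all genes), 0 of 9 had an unadjusted p under 0.05 (7.97%) and 0 of 9 were separated (2.76% higher, 1.26% lower). The smallest adjusted p of a member was 0.909, the median was 0.03, and 6 of 9 lay above 0, where 57.9% of all genes did. The F test over all 3 groups gave 0 members at an unadjusted p under 0.05, where 7.23% of all genes had one.

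**Figure D1:**
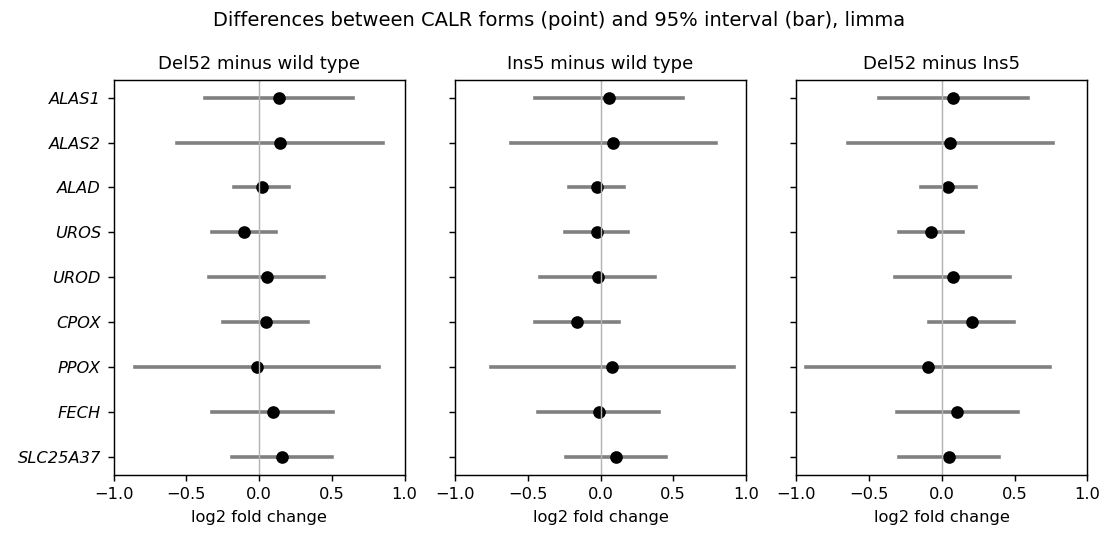
Log2 fold changes of the 9 genes between CALR forms (points) with 95% intervals from limma (bars), for Del52 minus wild type, Ins5 minus wild type and Del52 minus Ins5. Every interval includes 0, and PPOX has the widest, -0.85 to 0.82 for Del52 minus wild type.

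ALAS2, the erythroid form of the first enzyme, read 9.18, 9.18 and 8.61 in Del52 (replicates 1 to 3), 8.98, 9.18 and 8.64 in Ins5, and 8.61, 8.41 and 9.52 in wild type. The highest and the lowest array were both wild type, and replicate 3 was the low array in each mutant, so all groups overlapped. Its log2 fold change was 0.14 ± 0.30 (SE) for Del52 and 0.09 ± 0.30 for Ins5 against wild type (limma adjusted p = 0.996 and 1). The 95% interval for Del52 ran from -0.56 to 0.85. The value depended on which arrays entered. It was 0.48 for Del52 and 0.43 for Ins5 without wild-type replicate 3, and -0.07 and -0.13 without wild-type replicate 2. For Ins5 it was also -0.03 without wild-type replicate 1 and -0.04 without Ins5 replicate 2. For Del52 it was 0.05 without Del52 replicate 1 and 0.33 without Del52 replicate 3. Both other ALAS2 probe sets followed the brightest over the arrays, with Pearson r of 1.00 and 0.99 and spans of 1.20 and 1.12.

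ALAS1, the housekeeping form, had the opposite pattern. It read 5.66, 5.40 and 5.94 in Del52, 5.61, 5.42 and 5.73 in Ins5, and 5.51, 5.96 and 5.11 in wild type. Wild-type replicate 2 was its highest array and wild-type replicate 3 its lowest, and replicate 3 was the high array in each mutant. The log2 fold change was 0.14 ± 0.22 (SE) for Del52 and 0.06 ± 0.22 for Ins5 against wild type (limma adjusted p = 0.981 and 1). Without wild-type replicate 3 these were -0.07 and -0.15, and without wild-type replicate 2 they were 0.35 and 0.27. All 4 ALAS1 probe sets shared this order of arrays closely, with r of at least 0.96 to the brightest.

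**Figure D2:**
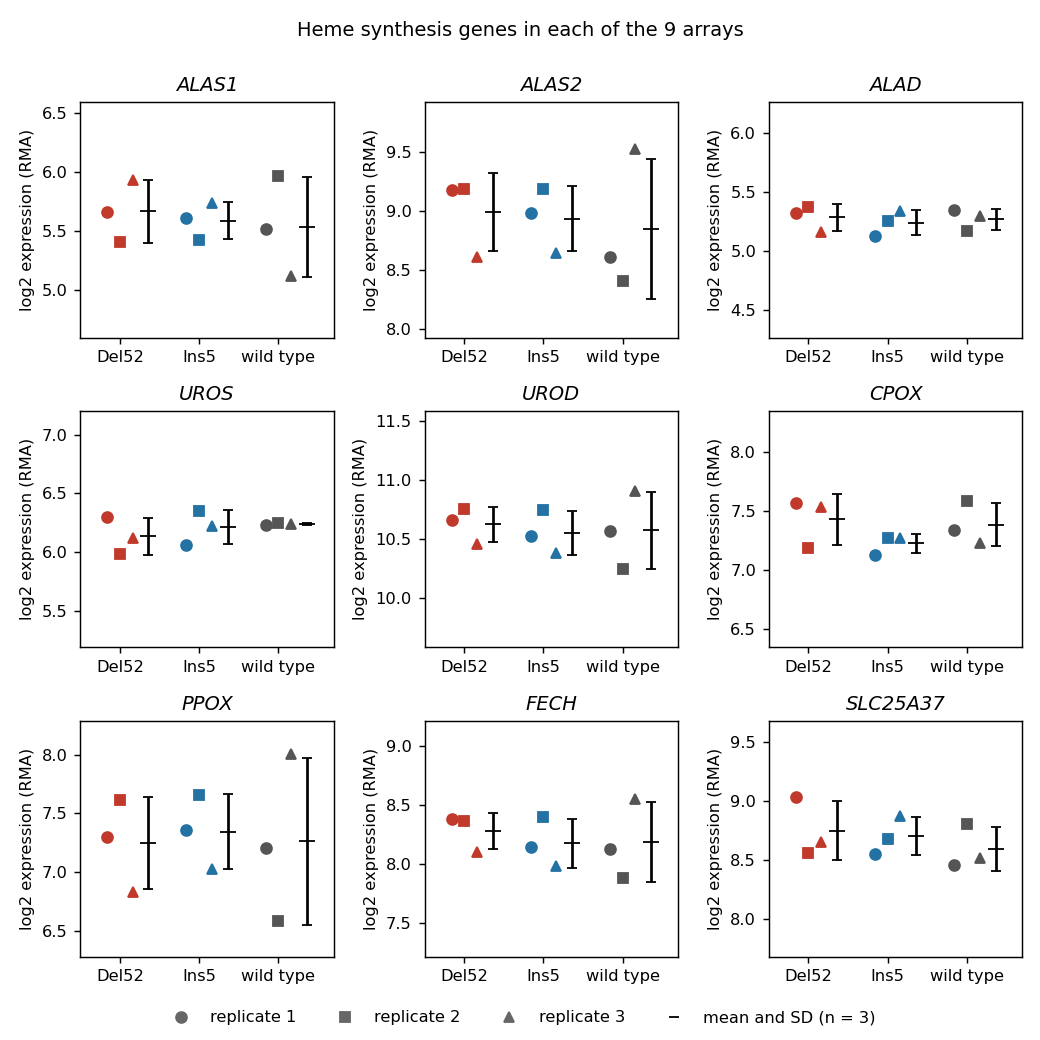
Log2 expression of each gene in the 9 arrays, by CALR form; marker shapes give the replicate, and the bar to the right of each group is the mean with its SD (n = 3). Each panel spans 2 log2 units around the gene's mean. The wild-type arrays of ALAS2, PPOX, UROD and FECH enclose the mutant arrays, and ALAS1 shows replicates 2 and 3 in the reverse order.

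Of the cytosolic enzymes, ALAD joins 2 aminolevulinic acid molecules to porphobilinogen. It read 5.32, 5.37 and 5.16 in Del52, 5.12, 5.26 and 5.34 in Ins5, and 5.34, 5.16 and 5.29 in wild type. It had the smallest span of the members, 0.25 over the 9 arrays, and 65.0% of all genes had a larger one. Its level lay within the span of the antigenomic controls. A second ALAD probe set, with a mean of 2.94, did not follow the brightest (r = -0.23). Set against wild type, the log2 fold change of ALAD was 0.02 ± 0.08 (SE) in Del52 cells and -0.03 ± 0.08 in Ins5 cells (limma adjusted p = 1 for both), with signs that turned when single arrays were left out. Without wild-type replicate 2 it was -0.03 for Del52 and -0.08 for Ins5.

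UROS closes the ring to uroporphyrinogen III. It had 1 probe set, which read 6.30, 5.99 and 6.13 in Del52, 6.06, 6.35 and 6.23 in Ins5, and 6.23, 6.25 and 6.24 in wild type. The wild-type arrays lay together (SD 0.01, n = 3) while the mutant arrays lay on both sides of them (SD 0.16 in Del52 and 0.15 in Ins5). Its log2 fold change of -0.10 ± 0.09 (SE) in Del52 against wild type had the smallest p of the members in that comparison (limma unadjusted p = 0.306, adjusted p = 0.912), and was -0.03 without Del52 replicate 2 and -0.18 without Del52 replicate 1. In Ins5 it was -0.03, and 0.05 without Ins5 replicate 1.

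UROD, which removes carboxyl groups from the ring's side chains, read 10.66, 10.75 and 10.46 in Del52, 10.52, 10.75 and 10.38 in Ins5, and 10.56, 10.25 and 10.90 in wild type. As for ALAS2, wild-type replicate 3 was highest and wild-type replicate 2 lowest. The log2 fold change was 0.05 ± 0.17 (SE) for Del52 and -0.02 ± 0.17 for Ins5 (limma adjusted p = 1 for both). It was -0.11 and -0.18 without wild-type replicate 2, and 0.22 and 0.15 without wild-type replicate 3. Of its 7 probe sets, 5 followed this order with r of at least 0.97, and the other 2, with means of 2.82 and 2.18, did not.

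Of the mitochondrial enzymes, CPOX makes protoporphyrinogen IX. It read 7.57, 7.18 and 7.54 in Del52, 7.13, 7.28 and 7.27 in Ins5, and 7.34, 7.58 and 7.23 in wild type. Of the members it had the largest share of its variance between groups, 28.9%, where the median over all genes was 21.3%. Its value for Del52 against Ins5, 0.20 ± 0.13 (SE), had the smallest p of the members in that comparison (limma unadjusted p = 0.142, adjusted p = 0.961), with a 95% interval of -0.09 to 0.49. It was 0.33 without Del52 replicate 2. Against wild type it was 0.05 in Del52 and -0.16 ± 0.13 (SE) in Ins5 (limma adjusted p = 1 and 0.868). The Ins5 value was -0.06 without wild-type replicate 2 and -0.24 without wild-type replicate 3. The Del52 value was 0.14 without wild-type replicate 2, -0.02 without Del52 replicate 1, -0.01 without Del52 replicate 3 and -0.03 without wild-type replicate 3. Both other CPOX probe sets had r of 0.83 and 0.92 with the brightest. Against wild type the brighter of these had 0.20 in Del52 and 0.03 in Ins5, the latter opposite in sign to the brightest. The dimmer had 0.03 and -0.19.

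PPOX, which oxidises protoporphyrinogen, varied most. It read 7.30, 7.62 and 6.84 in Del52, 7.36, 7.66 and 7.03 in Ins5, and 7.21, 6.59 and 8.00 in wild type. Its span of 1.41 was exceeded by 2.58% of all genes. Only 1.04% of its variance lay between groups, and the log2 fold change was -0.01 ± 0.36 (SE) for Del52 and 0.08 ± 0.36 for Ins5 (limma adjusted p = 1 for both). Without wild-type replicate 2 these were -0.35 and -0.26, and without wild-type replicate 3 they were 0.35 and 0.45. A second PPOX probe set with a mean of 7.13 followed it (r = 1.00), and the dimmest, with a mean of 3.00, did not (r = -0.52).

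FECH, which inserts the iron, read 8.38, 8.37 and 8.11 in Del52, 8.15, 8.40 and 7.99 in Ins5, and 8.13, 7.89 and 8.56 in wild type. Its arrays ran in the order of those of ALAS2, UROD and PPOX at both ends, with wild-type replicate 3 highest and wild-type replicate 2 lowest. The log2 fold change was 0.10 ± 0.18 (SE) for Del52 and -0.01 ± 0.18 for Ins5 (limma adjusted p = 0.992 and 1). It was -0.06 and -0.16 without wild-type replicate 2, and 0.28 and 0.17 without wild-type replicate 3. Of its 4 probe sets, 3 had r of at least 0.95 with the brightest, itself counted, and the dimmest, with a mean of 2.86, had r of 0.44.

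SLC25A37, the iron importer, read 9.03, 8.56 and 8.66 in Del52, 8.55, 8.68 and 8.87 in Ins5, and 8.46, 8.80 and 8.51 in wild type. Del52 replicate 1 was its highest array and wild-type replicate 1 its lowest. The log2 fold change was 0.16 ± 0.15 (SE) for Del52 and 0.11 ± 0.15 for Ins5 (limma adjusted p = 0.919 and 0.981), the highest of the 9 members in both comparisons. It was 0.02 for Del52 without Del52 replicate 1, the array with a score of -0.79 on the second principal component, and 0.02 for Ins5 without Ins5 replicate 3. It was 0.26 for Del52 and 0.21 for Ins5 without wild-type replicate 2, and 0.09 and 0.04 without wild-type replicate 1.

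The 5 probe sets of SLC25A37 disagreed. The 4 others had r of 0.22, 0.82, 0.53 and 0.77 with the brightest. In the fourth by brightness the arrays read 7.49, 7.35 and 7.42 in Del52, 7.24, 7.35 and 7.26 in Ins5, and 7.15, 7.18 and 7.20 in wild type. All 6 mutant arrays lay above all 3 wild-type arrays there, with log2 fold changes of 0.25 ± 0.05 (SE) for Del52 and 0.11 ± 0.05 for Ins5. Neither passed over all probe sets (limma unadjusted p = 0.00125 and 0.055, adjusted p = 0.603 and 0.674). Of all 32 member probe sets it was the 1 with an unadjusted p under 0.05 in Del52 against wild type (6.87% of all probe sets). It was also the 1 of 32 higher without overlap there (6.01% of all probe sets, and 0 of 32 lower against 4.47%), in Ins5 against wild type (7.36%, and 0 of 32 lower against 4.08%) and in both mutants against wild type (2.43%, and 0 of 32 lower against 1.35%). Between the mutants, it was the 1 of 32 with an unadjusted p under 0.05 (6% of all probe sets). Its Del52 value against Ins5 was 0.13 ± 0.05 (SE, limma unadjusted p = 0.0292, adjusted p = 0.792), and these 2 groups overlapped. In the same comparison another, 1 of 32, was higher without overlap (4.94% of all probe sets) and 0 of 32 lower (5.86%). That was the second-brightest SLC25A37 probe set, which read 8.73, 8.45 and 8.46 in Del52 and 8.33, 8.43 and 8.18 in Ins5, with a log2 fold change of 0.23 ± 0.13 (SE, limma adjusted p = 0.885). Its Ins5 value against wild type was -0.16, opposite in sign to the brightest.

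**Figure D3:**
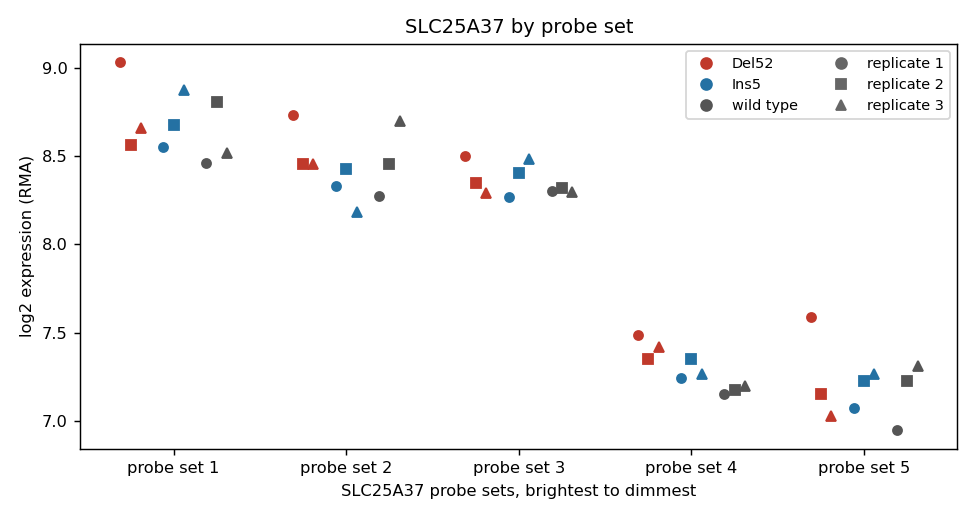
Log2 expression of SLC25A37 in the 9 arrays for each of its 5 probe sets, ordered by mean, with colours for the CALR form and shapes for the replicate. In the fourth probe set the 6 mutant arrays sit above the 3 wild-type arrays, and in the other 4 the groups overlap with the wild-type arrays.

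Across the arrays 4 members moved together and ALAS1 moved against them, while CPOX, SLC25A37, ALAD and UROS had weaker links to these 5. ALAS2, UROD, PPOX and FECH were highest in wild-type replicate 3 and lowest in wild-type replicate 2, 4 of 9 members, where 9.11% of all genes had those extremes. Between these 2 arrays of the same group PPOX differed 2.66-fold, ALAS2 2.16-fold, FECH 1.59-fold and UROD 1.58-fold. ALAS1 had the reverse extremes, 1 of 9 members, where 9.06% of all genes had them, and was 1.8-fold higher in wild-type replicate 2. The same opposition appeared within each mutant group: replicate 3 was below replicate 2 for ALAS2 by 0.57 in Del52 and 0.54 in Ins5 on the log2 scale, while ALAS1 was above it by 0.53 and 0.32.

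Pearson correlations over the 9 arrays, given as a description, showed the same division. Of 36 pairs of members, 6 had r above 0.8, all of them among ALAS2, UROD, PPOX and FECH, from 0.92 for PPOX with FECH to 0.98 for UROD with FECH. The 4 pairs with r below -0.8 joined ALAS1 to each of these genes, from -0.84 for ALAS2 and FECH to -0.97 for PPOX. Pairs among all genes were not counted, so whether 6 and 4 of 36 are unusual was not tested. Over all genes, 28% had r beyond 0.8 in size with the first principal component. Spearman's rho was -0.88 for ALAS1 with ALAS2 and -0.93 for ALAS1 with PPOX. With group means removed, r was -0.92 for ALAS1 with ALAS2 and 0.97 for ALAS2 with FECH. Without both wild-type arrays at the ends, 7 arrays were left, and r was -0.61 for ALAS1 with ALAS2, -0.92 for ALAS1 with PPOX and 0.91 for ALAS2 with FECH. CPOX had r of 0.68 with ALAS1 and -0.67 with PPOX. ALAD had -0.50 with ALAS1, and UROS had at most 0.44 in size with any member. With group means removed, UROS had r of 0.66 with CPOX and 0.66 with SLC25A37.

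**Figure D4:**
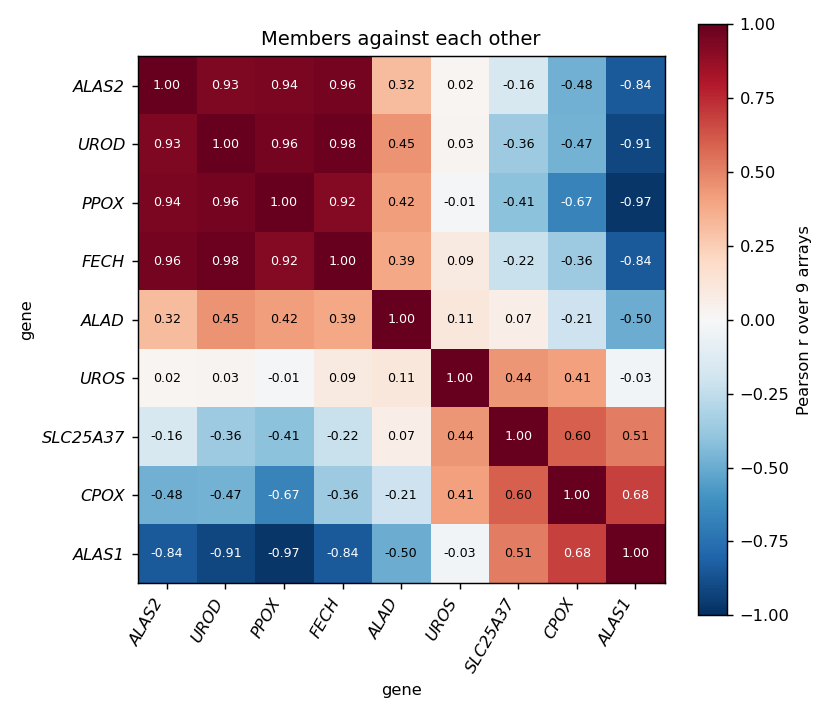
Pearson r between the 9 genes over the 9 arrays, from red for positive to blue for negative. ALAS2, UROD, PPOX and FECH form a block with r from 0.92 to 0.98, and ALAS1 has r from -0.97 to -0.84 with them.

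These 5 genes followed the main axis of all genes. Pearson r with the array scores on the first principal component was -0.98 for PPOX, -0.95 for UROD, -0.89 for FECH, -0.87 for ALAS2 and 0.97 for ALAS1, so 5 of 9 members were beyond 0.8 in size, where 28% of all genes were: 1 above 0.8 (14.7% of all genes) and 4 below -0.8 (13.3%). CPOX had 0.69, SLC25A37 0.58, ALAD -0.38 and UROS 0.10. The difference between 3′ and 5′ probe sets of actin, a control for RNA integrity and labelling, moved with the axis too, with r of -0.74. It was 1.08 in wild-type replicate 2, the lowest of the 9 arrays, and at most 1.39. The same difference for GAPDH had r of -0.68 with the axis. The actin difference had r of 0.66 with PPOX and UROD, 0.54 with FECH, 0.41 with ALAS2 and -0.71 with ALAS1, and its part in these patterns was not tested.

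**Figure D5:**
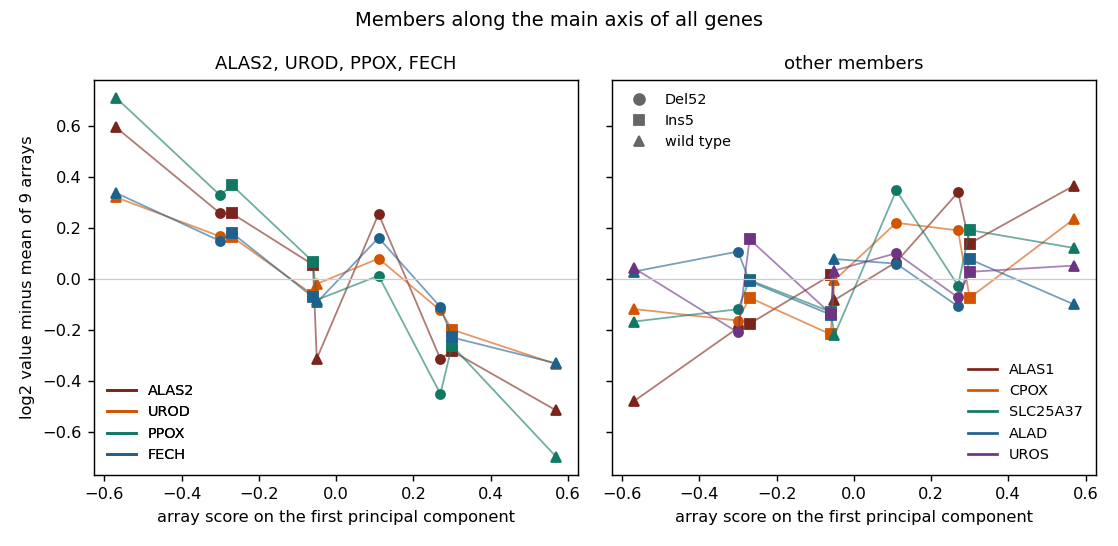
Log2 value of each gene around its mean over 9 arrays, against the array's score on the first principal component of all genes; shapes give the CALR form and lines join the arrays of a gene in order of score. ALAS2, UROD, PPOX and FECH lie high at the left end and low at the right end, with r from -0.98 to -0.87, and ALAS1 runs the other way with r of 0.97.

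The genes most like ALAS2 over the 9 arrays were sought among 9118 genes brighter than the median gene. The 5 with the highest Pearson r were CSTB (0.991), ALDH1A2 (0.986), SELENOK (0.985), EIF1AD (0.984) and SIK2 (0.984). ALDH1A2, a retinaldehyde dehydrogenase, also matched in size, with a root mean square difference of 0.06 between centred log2 values, as did SIK2, a protein kinase, with 0.06, while CSTB, a cysteine protease inhibitor, differed by 0.21. FECH had r of 0.960 with ALAS2, which 0.647% of the genes searched exceeded.

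Other genes of the pathway were taken from a list of 13, of which 9 were measured. None passed in Del52 or in Ins5 against wild type (4 and 5 of 9 above 0, medians -0.02 and 0.00). The smallest p belonged to LONP1, a mitochondrial protease that degrades ALAS1, PGRMC2, a heme chaperone, and SLC25A39, a mitochondrial glutathione carrier. LONP1 read 7.88, 8.11 and 8.07 in Del52, 8.40, 8.21 and 8.20 in Ins5, and 8.16, 8.11 and 8.18 in wild type. All Ins5 arrays lay above all wild-type arrays, as for 8.16% of all genes, and above all Del52 arrays, as for 6.28%. Del52 was below Ins5 by a log2 fold change of -0.25 ± 0.08 (SE), which did not pass (limma unadjusted p = 0.0126, adjusted p = 0.841). In that comparison 5.77% of all genes had an unadjusted p under 0.05. PGRMC2 had 0.22 ± 0.09 (SE) in the same comparison (limma unadjusted p = 0.0394, adjusted p = 0.855), and SLC25A39 had 0.07 in Del52 and 0.04 in Ins5 against wild type. The glycine importer SLC25A38 had -0.08 and 0.00, the second mitoferrin SLC25A28 -0.03 and -0.00, and ABCB10, a mitochondrial transporter that stabilises mitoferrin-1, 0.04 and 0.00. Without wild-type replicate 2, the values in Del52 and Ins5 were -0.02 and 0.07 for SLC25A38, 0.15 and 0.17 for SLC25A28, and -0.12 and -0.15 for ABCB10. ABCB10 had r of 0.905 with ALAS2 over the arrays, and SLC25A38 -0.943. The means of PGRMC2 (6.50) and SLC25A28 (4.57) lay within the span of the antigenomic controls, which reached 6.52.

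Genes that use, break down or move heme were represented by 10 measured of 10, and 0 passed in either comparison (medians 0.10 in Del52 and 0.06 in Ins5). SLC48A1, a heme transporter of endolysosomes, read 7.77, 7.79 and 7.80 in Del52, 7.81, 7.80 and 7.83 in Ins5, and 7.69, 7.68 and 7.64 in wild type. Every mutant array lay above every wild-type array, as for 2.76% of all genes. The log2 fold change was 0.12 ± 0.04 (SE) in Del52 and 0.14 ± 0.04 in Ins5 (limma unadjusted p = 0.0108 and 0.00411, adjusted p = 0.603 and 0.485).

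BACH1, the heme-sensing repressor of HMOX1 and other heme-response genes, read 7.23, 7.47 and 7.20 in Del52, 7.12, 7.40 and 7.24 in Ins5, and 7.88, 7.36 and 7.79 in wild type. Wild-type replicate 2 lay among the mutant arrays and the other 2 wild-type arrays above them. Its log2 fold change was -0.37 ± 0.15 (SE) in Del52 and -0.42 ± 0.15 in Ins5 (limma unadjusted p = 0.0353 and 0.0211, adjusted p = 0.667 and 0.614). The inducible heme oxygenase HMOX1 had means of 2.88 for Del52, 2.84 for Ins5 and 2.79 for wild type, within the span of the antigenomic controls. HMOX2, the constitutive form, had 0.18 ± 0.08 (SE) in Del52 and 0.06 in Ins5 (limma adjusted p = 0.723 and 0.974).

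In the iron supply list 9 of 12 genes were measured, and 0 passed in Del52 (median 0.04) or in Ins5 (0.03). The smallest p belonged to STEAP3, an endosomal ferrireductase, at 0.43 ± 0.38 (SE) in Del52 and 0.10 in Ins5. These were 0.81 and 0.48 without wild-type replicate 2, and 0.14 and -0.19 without wild-type replicate 3. The STEAP3 mean of 5.61 lay within the span of the antigenomic controls. Next came ISCU, a scaffold for iron-sulfur clusters, at 0.02 and 0.08, and NCOA4, a ferritin autophagy receptor, at -0.02 and 0.03. All 9 erythroid regulators were measured, and 0 passed in Del52 (median 0.17) or in Ins5 (0.06). EPOR, the erythropoietin receptor, had 0.37 ± 0.20 (SE) in Del52 and 0.14 in Ins5, ZFPM1, a GATA1 cofactor, 0.17 and 0.15, and KLF1 0.21 and 0.06. Without wild-type replicate 2, EPOR had 0.20 in Del52 and -0.03 in Ins5, and without wild-type replicate 3 it had 0.57 and 0.34. Without wild-type replicate 2, ZFPM1 had 0.26 and 0.24 and KLF1 0.30 and 0.16. The means of EPOR (4.10) and ZFPM1 (5.36) lay within the span of the antigenomic controls. GATA1 had a mean of 8.33 with SD 0.19 for Del52, 8.22 with SD 0.16 for Ins5 and 8.22 with SD 0.29 for wild type (n = 3 arrays each).

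Of the 9 erythroid regulators, 5 had r above 0.8 with the first principal component (14.7% of all genes) and 1 had r below -0.8 (13.3%), against 1 and 4 of the 9 heme genes. Correlations with ALAS2 were computed for the 8 regulators brighter than the median gene. TAL1, an erythroid transcription factor, had r of 0.970 with ALAS2, and the other 7 had r below 0, from -0.801 for LMO2, a TAL1 partner, to -0.127 for KLF1. GATA1 had -0.687. GATA1 read 8.53 in wild-type replicate 2 and 7.96 in wild-type replicate 3, the reverse of ALAS2.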

How the data were processed

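The members, gene lists and tests were chosen with earlier results of these data known. On each of 9 Affymetrix arrays the authors deposited 1 log2 value per probe set. The tools were Partek and RMA, per the submitters' processing notes, their versions not given in the sources used here. RMA subtracts background, makes the arrays' distributions alike and combines the probes of a set. That the logarithm has base 2 was taken from the range of the values. RMA equalises array distributions, so a change shared by most genes would not show. Of 49386 probe sets, 93 controls were left out, 45253 carried exactly 1 gene symbol, 1327 more than 1, and 2713 no symbol. The brightest with exactly 1 symbol stood for each of 18239 genes, of which 18179 matched RefSeq (GRCh38.p14) by gene identifier. Arrays give no read depth; their number limits the precision.

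All 9 arrays entered 1 limma fit (limma 3.58.1, R 4.3.3) with a mean per group, moderated variances and 6 residual degrees of freedom, no block, and Benjamini-Hochberg adjustment over all genes at 0.05, two-sided. The fit was tested on simulated data. Groups without overlap, correlations and motif matches (Python 3.11.15, pandas 2.3.3) are descriptions. Named genes were the 9 members, 6 genes fixed by role, the 3 with the smallest p of each further list, the 5 most like ALAS2, CALR and NGFR; TAL1 and LMO2 were singled out after their values were seen. Alternatives covered normalization, probe set rule, variance model, array weights, pairing, the first principal component and each array left out. Array weights estimated gene by gene and the removal of both end arrays were added after the data were seen.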

Additional observations from a re-analysis of the deposited data

How the results depend on the processing

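The count of 0 genes at an adjusted p under 0.05 held in all 4 comparisons under median centring, quantile normalization, a filter at the median level, other probe set rules, an intensity trend and gene-by-gene array weights, without both end arrays and without each array in turn, and in the 3 pairwise comparisons with only the 6 arrays compared. It was 2, 9, 1 and 8 with unmoderated variances (Del52, Ins5, Del52 against Ins5, both mutants), 4, 7 and 68 with the first principal component as covariate (Del52, Ins5, both mutants), and 3190, 4017 and 6232 with array weights. That weight estimate stopped short of its tolerance and gave wild-type replicate 1 a weight of 67, against 1.82 for the next array; gene-by-gene weights gave that array 3.56 and called 0 genes. Of the members, only SLC25A37 in Del52 (0.36, limma adjusted p = 0.0419), and ALAS2 and SLC25A37 in both mutants (adjusted p = 0.0331 and 0.0189), passed with those unconverged weights, and none in any other setting. The replicate number as a block left 0 genes called in all 4 comparisons and no call of a member changed. Deviations of same-numbered arrays had r from -0.92 to 0.64. Del52 with Ins5 had 0.64 in replicate 2, 0.57 in replicate 3 and -0.56 in replicate 1, and each mutant had r below 0 with wild type. These values cannot show whether the numbers pair the samples, because 1 axis held 70.5% of the variance. Member medians, all within 0.113 (their spread between arrays) of the reported values, ran from -0.056 to 0.135 for Del52, -0.078 to 0.069 for Ins5, 0.010 to 0.112 for Del52 against Ins5 and -0.060 to 0.093 for both mutants with 1 array left out.

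Of 594 member values under alternatives, 53 had the opposite sign to the reported value and 0 of these were called. For Del52, PPOX was 0.01 with quantile normalization, 0.03 with array weights, 0.04 with the component and 0.05 without both end arrays; ALAD was -0.06 with array weights, -0.04 with gene-by-gene weights and -0.06 without both end arrays. For Ins5, FECH was 0.02 with quantile normalization, 0.05 with the mean of probe sets, with array weights and without both end arrays, and 0.03 with gene-by-gene weights. For Del52 against Ins5, UROS was 0.03 and 0.01 with the 2 kinds of weights. With 1 array left out, values for Del52 ran from -0.03 to 0.08 for ALAD, -0.07 to 0.35 for ALAS1, -0.07 to 0.48 for ALAS2, -0.03 to 0.17 for CPOX, -0.06 to 0.28 for FECH, -0.35 to 0.35 for PPOX and -0.11 to 0.22 for UROD. For Ins5 they ran from -0.08 to 0.03 for ALAD, -0.15 to 0.27 for ALAS1, -0.13 to 0.43 for ALAS2, -0.16 to 0.17 for FECH, -0.26 to 0.45 for PPOX, -0.18 to 0.15 for UROD and -0.10 to 0.05 for UROS. For Del52 against Ins5 they ran from -0.01 to 0.11 for ALAD, -0.06 to 0.21 for ALAS1, -0.09 to 0.25 for ALAS2, -0.28 to 0.11 for PPOX, -0.09 to 0.14 for SLC25A37 and -0.01 to 0.17 for UROD. SLC25A37 ran from 0.02 to 0.26 for Del52 and 0.02 to 0.21 for Ins5. The cause of these changes was not tested beyond the arrays named. Signal over background limits ALAS1, ALAD and UROS, whose values lie within the span of the antigenomic controls. It also limits the listed genes PGRMC2, SLC25A28, HMOX1, STEAP3, EPOR and ZFPM1, whose means lie within that span.

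Of 788 values of the named list genes under alternatives, 45 had the opposite sign to the reported value. There were 14 calls, all with the unconverged array weights, among them SLC25A28 in Ins5 at 0.30, where the reported value was -0.00. Other changes of sign were, for Del52, -0.01 for PGRMC2 with the mean of probe sets, and 0.25, 0.18 and 0.22 for SLC25A28 with array weights, gene-by-gene weights and without both end arrays. For Ins5, the mean of probe sets gave -0.02 for HMOX2 and -0.02 for NCOA4. Median centring gave -0.01 for SLC25A38, ABCB10 and GATA1, and the component gave -0.00 for SLC25A38 and GATA1. Array weights, gene-by-gene weights and the removal of both end arrays gave -0.04, -0.03 and -0.05 for SLC25A38, -0.04, -0.03 and -0.02 for ABCB10, and -0.05, -0.02 and -0.01 for HMOX1, while the last 2 gave 0.22 and 0.24 for SLC25A28. With 1 array left out, Del52 values ran from -0.12 to 0.18 for ABCB10, -0.02 to 0.27 for GATA1, -0.04 to 0.08 for ISCU and -0.15 to 0.15 for SLC25A28. Ins5 values ran from -0.15 to 0.15 for ABCB10, -0.03 to 0.34 for EPOR, -0.13 to 0.16 for GATA1, -0.01 to 0.10 for HMOX1, -0.12 to 0.17 for SLC25A28, -0.09 to 0.07 for SLC25A38, -0.00 to 0.07 for SLC25A39 and -0.19 to 0.48 for STEAP3.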
